A study of Caenorhabditis elegans with 6 samples.

Results

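The messenger RNAs measured here belong to 10 genes that make microRNAs or let them act in *Caenorhabditis elegans*. They are the Argonaute genes alg-1 and alg-2, the GW182 genes ain-1 and ain-2, the processing genes drsh-1, pash-1 and dcr-1, the exonuclease genes xrn-1 and xrn-2, and nhl-2. These genes were chosen by name, and every probe set that the platform annotation gives to a single one of them was used. All 10 were found, with 17 of the 22548 probe sets tested and 10 of 17118 genes. Of these, 2 genes had 3 probe sets, 3 had 2 and 5 had 1.

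The mutant group carried alg-1(gk214), a deletion allele of the microRNA Argonaute gene, and the other group was the N2 wild type strain. Both groups were grown in synchrony at 25 °C on plates with OP50 bacteria and taken as whole worms at larval stage L4, the last larval stage. Each group had 3 single-colour Affymetrix arrays, described in the labels as independent replicates. The labels say neither whether gk214 leaves a partial alg-1 transcript nor how old the worms were within L4.

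In the nucleus, Drosha and its partner Pasha cut a hairpin out of the primary microRNA transcript, and Dicer then trims the hairpin to a short duplex in the cytoplasm. One strand is loaded into an Argonaute protein and guides it to partly complementary messenger RNAs. The Argonaute recruits a GW182 protein, which brings in deadenylases and decapping factors, so that the bound message is repressed and degraded. In the worm, ALG-1 and ALG-2 are the main microRNA Argonautes and AIN-1 and AIN-2 are the GW182 proteins. The pathway is best known in this animal for setting the order of larval cell fates.

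All levels are log2 values as deposited, and all changes are mutant minus wild type on that log2 scale. A gene or probe set is said to have risen or fallen where limma, a linear model with a shared variance estimate fitted across all probe sets, gave a Benjamini-Hochberg adjusted p under 0.05. Over all probe sets the mutant arrays correlated with each other at a Pearson r of 0.998, the wild type arrays at 0.994 to 0.996, and arrays of different genotype at 0.968 to 0.976. Wild type replicate 3 stood apart in the 3′ minus 5′ difference of its GAPDH control probe sets. That difference was −0.58, against −0.23 on the other wild type arrays and −0.22 to −0.14 on the mutant arrays. For the actin controls it was −0.20, against −0.04 to 0.01 on the other arrays. On this array the 3′ signal was thus lowest relative to the 5′ signal for both controls. Without wild type replicate 3, the same 9 of the 17 probe sets passed in the same direction. Values without it are given where it lay apart from the other wild type arrays. With 3 arrays against 3, an exact permutation test cannot give a p below 0.1.

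**Figure D1:**
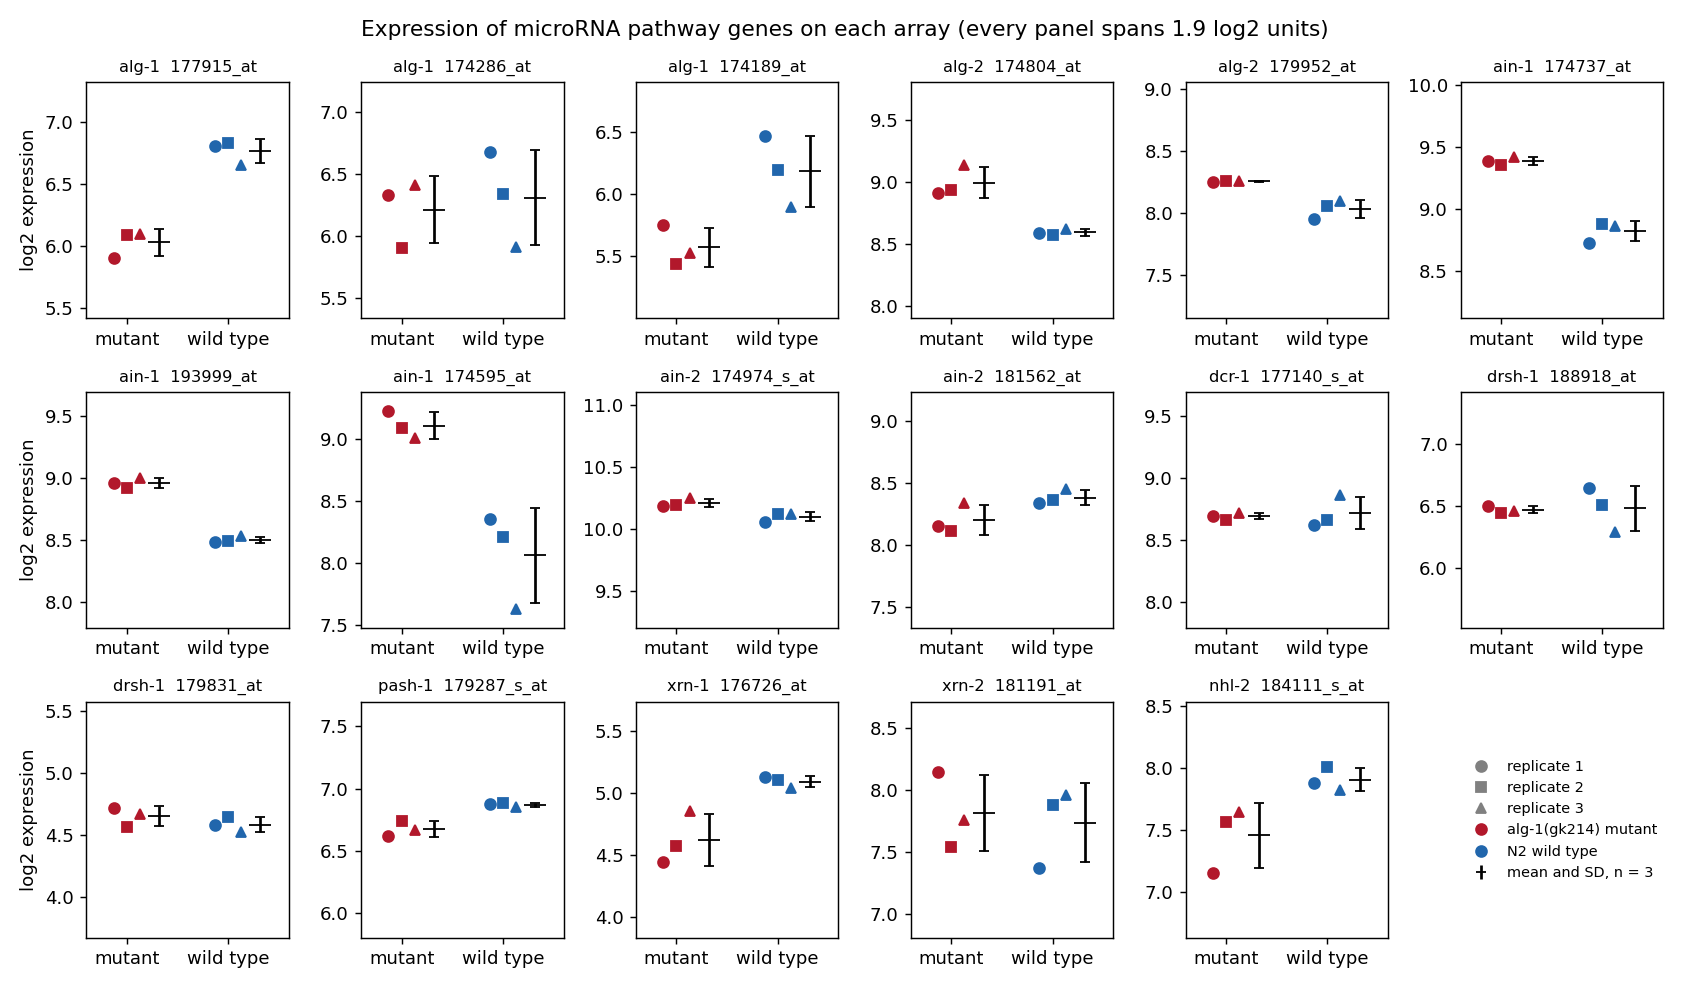
Log2 expression on each array (vertical axis) for the 17 probe sets of the 10 genes, mutant left and wild type right, with replicates as symbols and mean and SD (n = 3) in black. The groups stand clear of each other for both alg-2 and all 3 ain-1 probe sets, while those of dcr-1, drsh-1 and xrn-2 overlap.

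Of the 10 genes, each read from its probe set with the highest mean, 2 rose (alg-2 and ain-1), 3 fell (alg-1, xrn-1 and nhl-2) and 5 did not pass. Over all genes, 14.4% rose and 20.1% fell by the same rule, 34.6% in all. The median change of the 10 genes was −0.02, beside −0.06 over all genes. Counted as probe sets, 5 rose and 4 fell of 17, and over all probe sets 14.8% rose and 18.9% fell, 33.7% in all. In 11 of the 17 probe sets the mutant and wild type values did not overlap, as was the case for 48% of all probe sets. The median size of change was 0.22 over the 17 probe sets and 0.17 over all probe sets. Of the 17, 1 reached 2-fold, the ain-1 probe set 174595_at, and 4.86% of all probe sets did.

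The mutated gene, alg-1, read lower in the mutant with 2 of its 3 probe sets. Probe set 177915_at gave 5.90, 6.09 and 6.09 in the mutant, against 6.80, 6.83 and 6.65 in the wild type. All mutant arrays lay below all wild type arrays, and the fall of 0.73 (SE 0.085, limma adjusted p = 0.000245) is a signal 0.601 times that of the wild type. Probe set 174189_at gave 5.75, 5.44 and 5.53 in the mutant, against 6.47, 6.20 and 5.90 in the wild type. Here too the groups did not overlap, with a fall of 0.62 (SE 0.14, limma adjusted p = 0.00977). Probe set 174286_at behaved differently. It gave 6.33, 5.90 and 6.41 in the mutant, against 6.68, 6.34 and 5.91 in the wild type, so that the groups overlapped throughout. Its change was −0.10 with a 95% interval from −0.54 to 0.35 (limma adjusted p = 0.748). That range includes no change and stops short of the falls of 0.73 and 0.62 read by the other probe sets.

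On both 174286_at and 174189_at wild type replicate 3 was the lowest wild type array, at 0.60 and 0.44 below the mean of the other 2. Only 3.04% of all probe sets had this array at least 0.4 below the other wild type arrays, and 3 of the 17 studied here did. Without that array, the change of 174286_at was −0.30 (limma adjusted p = 0.218) and that of 174189_at was −0.76 (limma adjusted p = 0.00246). The part of that array's 3′ to 5′ balance in these values was not tested. The changes of 177915_at and 174286_at differed by −0.64 within arrays (exact permutation p = 0.2, two-sided; 0.28 after Benjamini-Hochberg adjustment over 7 such pairs). No source used here places the alg-1 probes inside or outside the gk214 deletion. A probe set outside the deleted stretch does not check the genotype, so these values cannot be taken as a proof of it.

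The paralog alg-2, whose protein also loads microRNAs, rose with both of its probe sets. Probe set 174804_at gave 8.91, 8.93 and 9.13 in the mutant, against 8.59, 8.57 and 8.62 in the wild type. The lowest mutant array was above the highest wild type array, and the rise of 0.40 (SE 0.080, limma adjusted p = 0.00481) is 1.32-fold. Probe set 179952_at gave 8.25, 8.26 and 8.26 in the mutant, against 7.95, 8.06 and 8.09 in the wild type. The mutant arrays were almost identical, with an SD of 0.0046, and the smaller rise of 0.22 (SE 0.070, limma adjusted p = 0.037) was 1.17-fold. That call is a weak one. It missed the threshold with quantile normalization (change 0.17, limma adjusted p = 0.0863) and when any single mutant array was left out (limma adjusted p of 0.101 to 0.105), although the change then stayed at 0.22 each time. Leaving out wild type replicate 1 (change 0.18, limma adjusted p = 0.0887) or 2 (change 0.23, limma adjusted p = 0.0673) also ended it. The probe sets of highest mean were then compared between the paralogs, and for both genes the other probe sets changed by less. Within arrays, the change of alg-2 probe set 174804_at exceeded that of alg-1 probe set 177915_at by 1.14. The SDs were 0.11 in the mutant and 0.12 in the wild type, with no overlap between the groups. The exact permutation p of 0.1 is the smallest the design allows, and it was 0.2 after adjustment over the 4 gene pairs compared. All 5 probe sets of alg-1 and alg-2 carry the plain _at ending, which Affymetrix uses for probe sets that match a single transcript. The only probe sets of nhl-2, pash-1 and dcr-1 and the brighter one of ain-2 end in _s_at, used for those that match several transcripts.

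Of the GW182 genes, ain-1 rose and ain-2 did not pass. The gene of AIN-1, a protein that binds ALG-1, was read by 3 probe sets and rose with each. Probe set 174737_at gave 9.39, 9.36 and 9.42 in the mutant, against 8.73, 8.88 and 8.87 in the wild type. The gap between the groups was far wider than the spread within them, and the rise was 0.56 (SE 0.072, limma adjusted p = 0.000438), or 1.48-fold. Probe set 193999_at gave 8.96, 8.91 and 8.996 in the mutant, against 8.49, 8.49 and 8.53 in the wild type. It rose by 0.45 (SE 0.066, limma adjusted p = 0.000874), or 1.37-fold, again with no overlap.

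The remaining ain-1 probe set, 174595_at, gave the largest change of any of the 17. Its values were 9.22, 9.08 and 9.01 in the mutant, against 8.35, 8.20 and 7.63 in the wild type. All mutant arrays were higher, but wild type replicate 3 lay 0.65 below the mean of the other wild type arrays. The rise was 1.04 (SE 0.17, limma adjusted p = 0.0015), or 2.06-fold, and without that array it was 0.83 (limma adjusted p = 0.000479). The excess of this rise over that of 174737_at was 0.48 within arrays, with overlapping groups (exact permutation p = 0.2, 0.28 adjusted), and it was 0.25 without wild type replicate 3. On the other ain-1 probe sets that array did not stand apart. Which probe set best gives the size of the ain-1 rise was not tested.

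The other GW182 gene, ain-2, did not pass with either probe set. Probe set 174974_s_at gave 10.19, 10.19 and 10.25 in the mutant, against 10.05, 10.12 and 10.12 in the wild type. The mutant arrays were slightly higher, without overlap, and the change was 0.11 with a 95% interval from −0.04 to 0.26 (limma adjusted p = 0.229). Probe set 181562_at gave 8.15, 8.11 and 8.34 in the mutant, against 8.33, 8.36 and 8.45 in the wild type. Here the mutant arrays were mostly lower, with an overlap, and the change was −0.18 with an interval from −0.37 to 0.01 (limma adjusted p = 0.129). The probe sets thus pointed in opposite directions, with a difference of 0.29 between their changes (exact permutation p = 0.1, the smallest possible, 0.233 adjusted). The change of ain-1 probe set 174737_at exceeded that of ain-2 probe set 174974_s_at by 0.45, with SDs of 0.02 in the mutant and 0.05 in the wild type and no overlap (exact permutation p = 0.1, 0.2 adjusted).

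**Figure D2:**
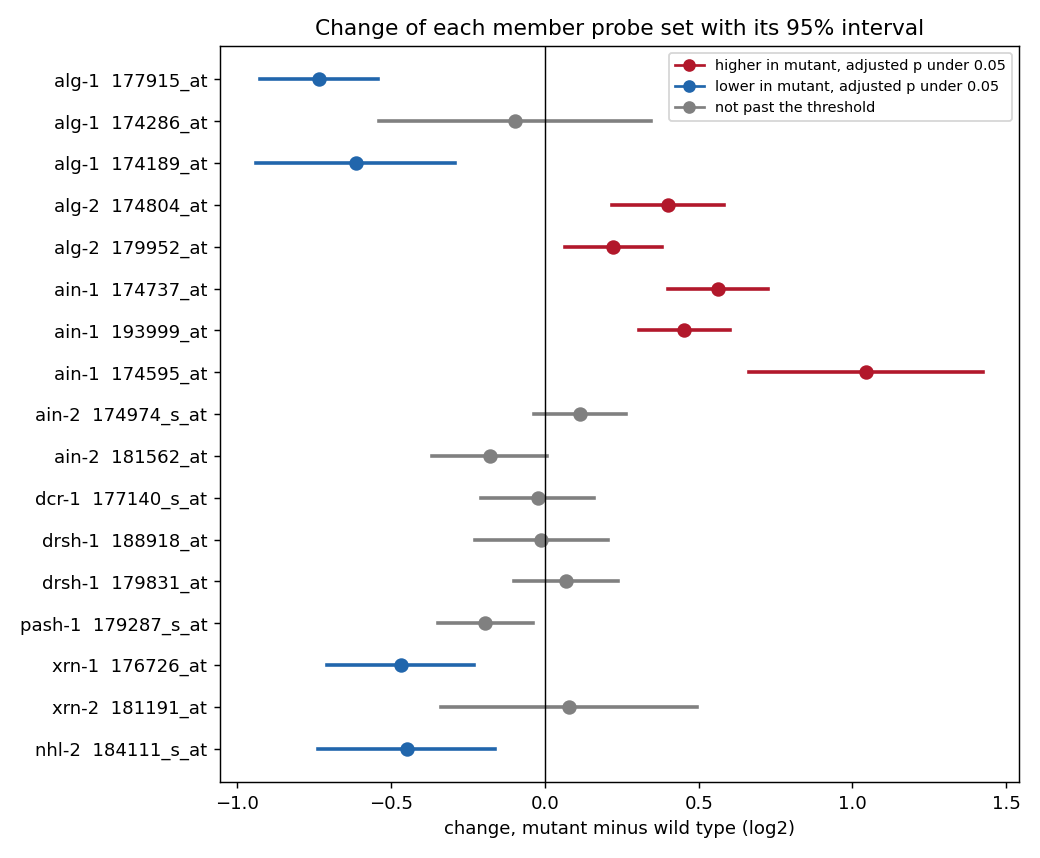
Change of each probe set (horizontal axis, log2, mutant minus wild type) with its 95% interval from limma, 3 arrays per genotype. Intervals of the processing genes dcr-1 and drsh-1 and of both ain-2 probe sets include 0, while the alg-2 and ain-1 intervals lie above it and those of xrn-1 and nhl-2 below.

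None of the 3 processing genes, drsh-1, pash-1 and dcr-1, passed the threshold. The Drosha gene drsh-1 was read by 2 probe sets. Probe set 188918_at gave 6.50, 6.45 and 6.46 in the mutant, against 6.65, 6.51 and 6.29 in the wild type. The mutant values fell inside the wild type range, and the change was −0.01 with a 95% interval from −0.23 to 0.20 (limma adjusted p = 0.939). Probe set 179831_at was dim, at percentile 27.9 of all probe sets. It gave 4.72, 4.57 and 4.67 in the mutant, against 4.58, 4.65 and 4.52 in the wild type, with a change of 0.07 (interval −0.10 to 0.24, limma adjusted p = 0.525). Both readings of drsh-1 thus differed by less between genotype means than across the 3 wild type arrays.

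The Drosha partner gene pash-1 came closer to a call. Its single probe set, 179287_s_at, gave 6.61, 6.74 and 6.67 in the mutant, against 6.87, 6.88 and 6.85 in the wild type. All mutant arrays were lower, and the change was −0.19 (SE 0.068, interval −0.35 to −0.04), which missed the threshold at a limma adjusted p of 0.0555. It passed with quantile normalization (−0.23, limma adjusted p = 0.0322), with array weights (−0.20, 0.0444) and when only probe sets above the median were tested (limma adjusted p = 0.0373). It also passed when genes were tested as the means of their probe sets. It came to −0.06 (limma adjusted p = 0.615) with each array centred on its spiked-in bacterial hybridization controls. The difference between the changes of drsh-1 probe set 188918_at and pash-1 was 0.18, with overlapping groups (exact permutation p = 0.2, 0.2 adjusted).

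The Dicer gene dcr-1, whose enzyme makes both microRNAs and small interfering RNAs, gave 8.69, 8.66 and 8.71 in the mutant, against 8.62, 8.66 and 8.86 in the wild type. The mutant arrays lay within the wild type range. The change was −0.02 with a 95% interval from −0.21 to 0.16 (limma adjusted p = 0.858), read from the single probe set 177140_s_at. Wild type replicate 3 was the highest of all 6 arrays, and without it the change was 0.05 (limma adjusted p = 0.625).

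The exonucleases differed in the precision of their readings. XRN-1 degrades decapped messages from the 5′ end in the cytoplasm. For xrn-1 the probe set 176726_at gave 4.44, 4.58 and 4.86 in the mutant, against 5.13, 5.11 and 5.04 in the wild type. Every mutant array was lower, and the fall was 0.47 (SE 0.11, limma adjusted p = 0.00847), a signal 0.723 times that of the wild type. The probe set was dim, at percentile 33.1. The mutant arrays were also more scattered, with an SD of 0.21 against 0.045 in the wild type.

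XRN-2, a mainly nuclear enzyme that has also been reported to degrade mature microRNAs in the worm, gave no call. Its probe set 181191_at gave 8.15, 7.54 and 7.76 in the mutant, against 7.38, 7.88 and 7.96 in the wild type. The highest and the lowest reading of xrn-2 came from replicate 1 of the mutant and replicate 1 of the wild type. The change was 0.08, with an interval from −0.34 to 0.49 (limma adjusted p = 0.785), so that this probe set leaves room for a change in either direction. Another probe set is shared by xrn-2 and Y53F4B.6 and was not counted for either. The difference between the changes of xrn-1 and xrn-2 was −0.55, with overlapping groups (exact permutation p = 0.2, 0.2 adjusted).

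NHL-2 is a TRIM-NHL protein that works with the microRNA complex and strengthens repression by some microRNAs. Its gene nhl-2 was read by 184111_s_at, with 7.16, 7.57 and 7.65 in the mutant, against 7.88, 8.01 and 7.83 in the wild type. All mutant arrays were lower, replicate 1 by the most, and the fall was 0.45 (SE 0.13, limma adjusted p = 0.0239). That call rested on single arrays. The change was −0.30 (limma adjusted p = 0.0516) without mutant replicate 1 and −0.40 (limma adjusted p = 0.0736) without wild type replicate 2. With centring on the hybridization controls it was −0.32 (limma adjusted p = 0.0718).

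**Figure D3:**
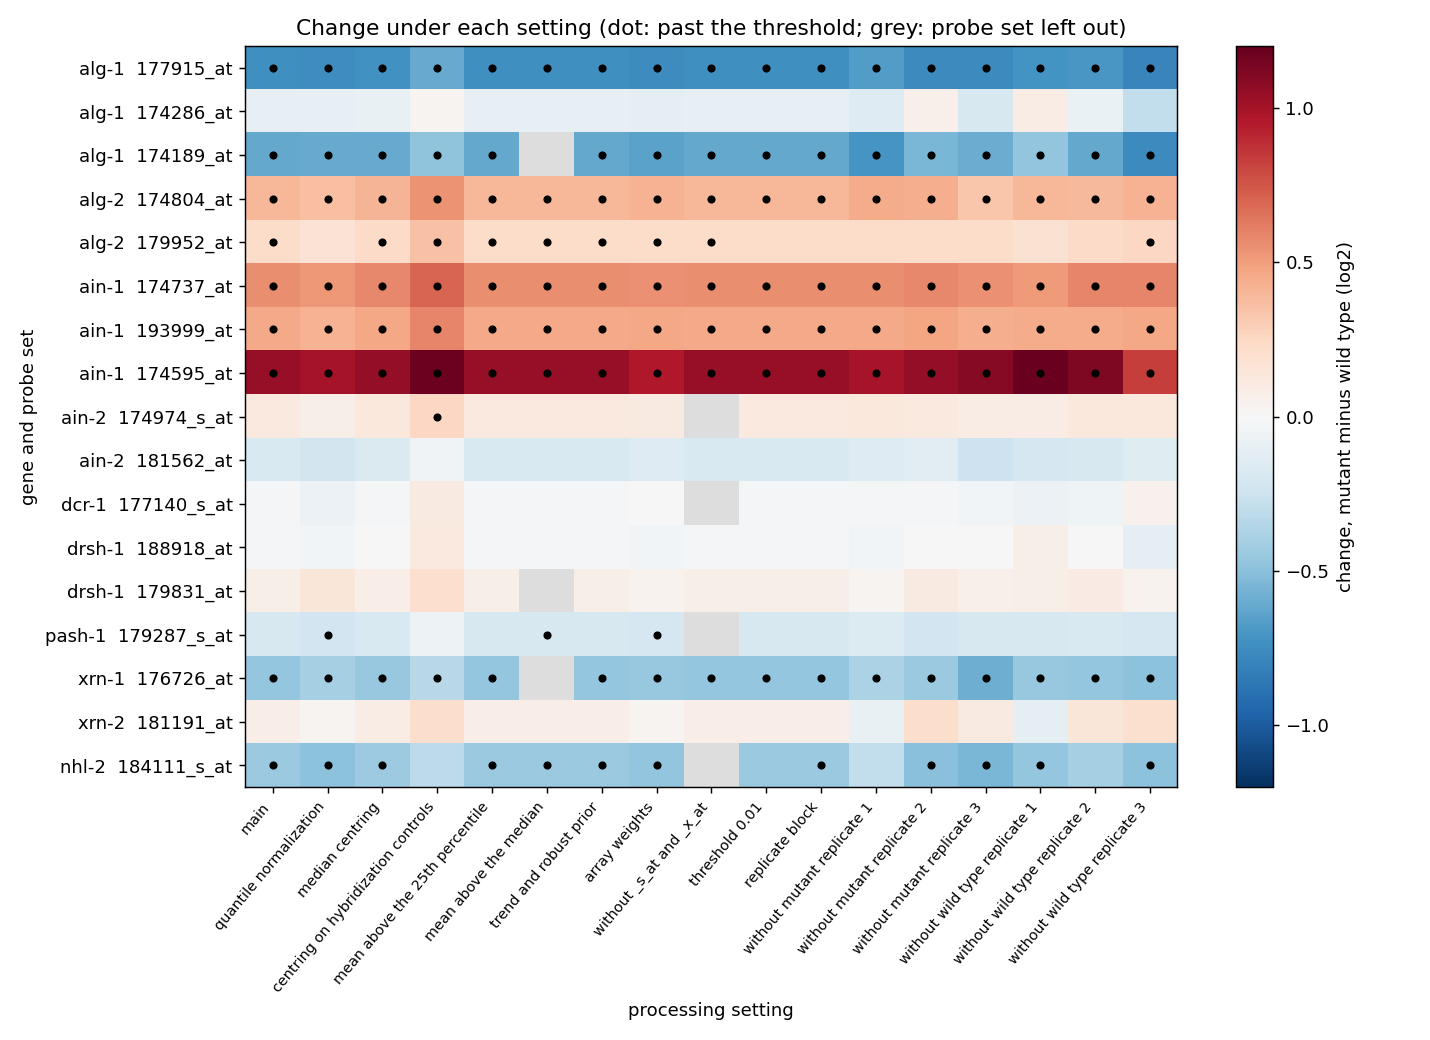
Change of each probe set (rows, colour in log2, mutant minus wild type) under each processing setting (columns), with a dot where it passed the threshold and grey where the setting left the probe set out. Probe sets 177915_at of alg-1, 174804_at of alg-2 and all 3 of ain-1 passed in every column, and nhl-2 and alg-2 probe set 179952_at did not.

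Over the 17 probe sets the median SD was 0.11 in the mutant and 0.083 in the wild type. Over all probe sets the order was the opposite, with 0.076 in the mutant and 0.11 in the wild type. The widest spreads were those of xrn-2 in the mutant (0.31) and of alg-1 probe set 174286_at in the wild type (0.39).

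For 3 of the genes the nearest profiles were looked up among 5216 genes with a probe set of plain ending and a mean above the median. Nearness was the Euclidean distance over the 6 arrays, each profile centred on its own mean. With 2 separate groups of arrays it mostly reflects the size of the change. Nearest to alg-1 were the chaperonin subunit gene cct-8 (distance 0.11), the peroxidasin gene pxn-1 (0.12) and F42A9.6 (0.13). Nearest to alg-2 were the neuropeptide gene flp-7, fbxa-115 and the cyclophilin gene cyn-1, all at distances of 0.13. Nearest to ain-1 were the insulin-like gene daf-28 (0.043), Y49E10.16 (0.086) and zipt-2.1 (0.094).

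Of 16 measured cofactors of this core machinery, 2 rose and 3 fell, with a median change of −0.04. These shares, 12.5% and 18.8%, lie near the 14.4% and 20.1% over all genes. Without mutant replicate 1 or 3 the counts were 1 and 1, and without wild type replicate 2 or 3 there was 1 rise. The risers were lin-28, whose protein blocks let-7 processing (0.64, limma adjusted p = 0.00273), and ebax-1, whose protein is a ubiquitin ligase subunit linked to microRNA decay (0.50, limma adjusted p = 0.0227). The third microRNA Argonaute gene, alg-5, fell by 0.37 (SE 0.097, limma adjusted p = 0.018), and its other probe sets differed by −0.40 (which passed) and −0.29 (which did not). Also lower were the RNA binding gene hrpk-1, which fell by 0.35 (limma adjusted p = 0.0154), and the poly(U) polymerase gene cid-1, which fell by 0.42 (limma adjusted p = 0.021). Another hrpk-1 probe set differed by 0.06 and another of cid-1 by −0.15, and neither passed, so those falls rest on 1 reading each. Dimmer lin-28 probe sets differed by −0.09 and −0.04 and did not pass either. The RISC component genes tsn-1 (0.16) and vig-1 (−0.21) and the helicase gene cgh-1 (0.11) did not pass.

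Downstream of the GW182 proteins, 2 of 23 deadenylation and decapping genes rose and 4 fell. Their median change was −0.062, beside −0.056 over all genes. The shares were 8.70% and 17.4%, below those over all genes. Leaving out any mutant array or wild type replicate 3 left 1 rise, and leaving out mutant replicate 1 or 3 left 2 falls. The deadenylase gene ccr-4 rose by 0.29 (limma adjusted p = 0.00948) and the poly(A) binding protein gene pab-2 by 0.32 (limma adjusted p = 0.0351). A dimmer ccr-4 probe set differed by −0.15 and did not pass. Those that fell were the poly(A)-specific ribonuclease genes parn-1 (−0.61, SE 0.078) and parn-2 (−0.33) and the CCR4-NOT subunit genes ntl-3 (−0.50, SE 0.084) and ntl-9 (−0.22). Of 11 partners of Dicer in RNA interference, 1 rose and 2 fell, with a median of −0.16. These shares, 9.09% and 18.2%, lie near the 14.4% and 20.1% over all genes, and none of these calls was firm. The Dicer-related helicase gene drh-2 rose by 0.41 (limma adjusted p = 0.041) with overlapping groups. There was no rise without mutant replicate 1 or 3 or wild type replicate 1 or 3, or with quantile normalization. Its relative drh-1 fell by 0.24 (limma adjusted p = 0.0205), and eri-3, of the complex that makes endogenous small interfering RNAs, by 0.28 (limma adjusted p = 0.032). When any single mutant array was left out, 0 of the 11 fell, and without wild type replicate 2 or 3 only 1 did. Among 4 genes for NHL-domain proteins related to NHL-2, lin-41 rose (0.98, SE 0.11) and the others did not pass with their brightest probe sets, with a median of 0.17. Other probe sets gave a rise of 0.39 for nhl-3 and a change of −0.30 for ncl-1, both past the threshold.

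Argonautes outside the microRNA pathway were mostly lower in the mutant, where 11 of the 18 measured fell and 0 rose, with a median change of −0.35. The share that fell was 61.1%, beside 20.1% over all genes, of which 14.4% rose. Without probe sets ending in _s_at or _x_at 6 fell, though some of these genes are then no longer measured. The 11 that fell in the setting reported included alg-4 (−1.55) and wago-10 (−1.45), and, with smaller changes, wago-2 (−0.84) and ppw-2 (−0.58). Every probe set used for alg-4 and ppw-2 ends in _s_at or _x_at. Other alg-4 probe sets differed by −1.02, which passed, and −0.18, which did not. Together with alg-1, alg-2 and alg-5, 21 Argonaute genes were measured, of which 1 rose and 13 fell. The gene that rose was alg-2.

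**Figure D4:**
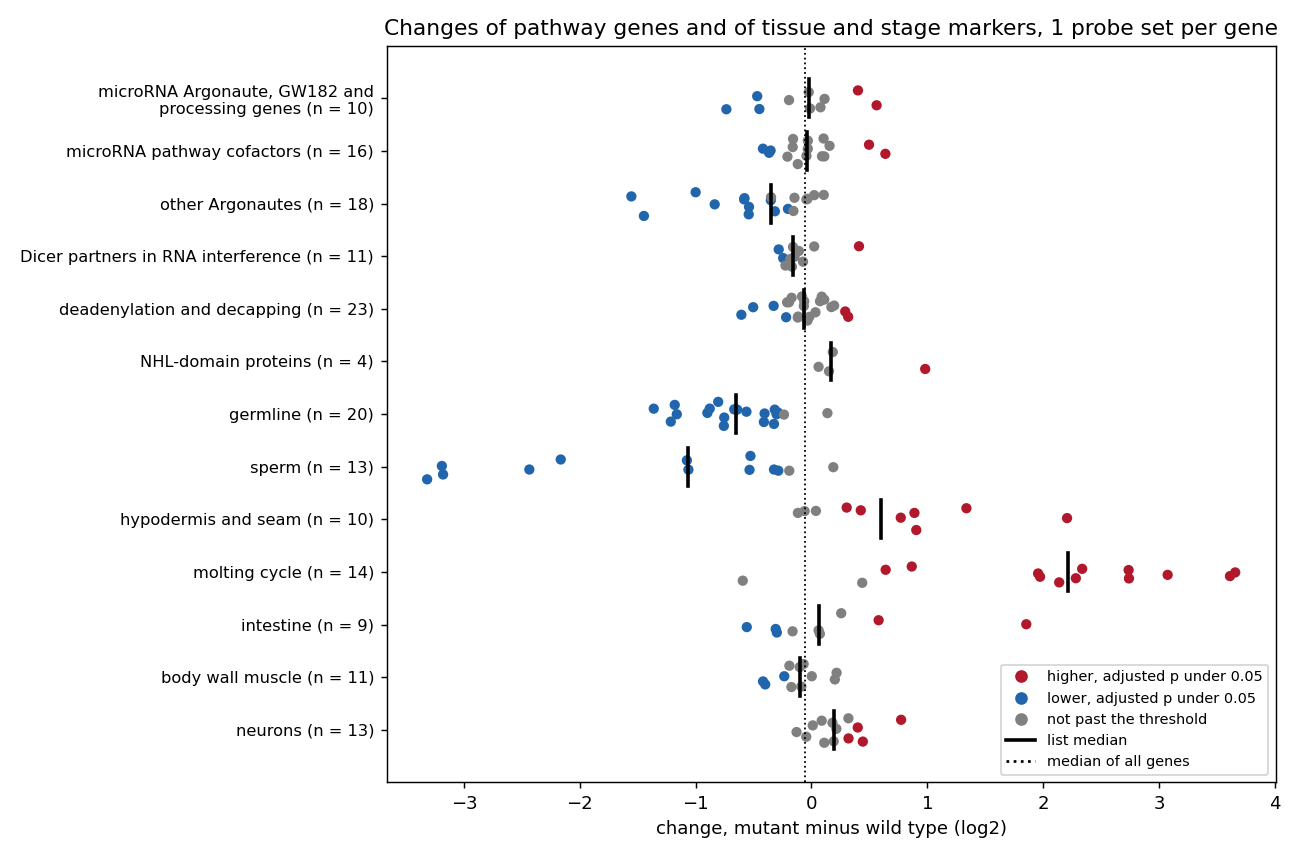
Change of every gene (points, log2, mutant minus wild type) in the 10 genes described here, in pathway lists and in marker lists, with list medians as bars and the median of all genes as a dotted line. The 10 genes centre near the median of all genes, the other Argonautes lie to its left with the germline markers, and molting genes lie to its right.

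The arrays measured RNA of whole worms, and in such RNA fewer cells of a type and less RNA per cell cannot be told apart. Over all genes, 14.4% rose and 20.1% fell by the same rule. Of 20 germline marker genes, 0 rose and 18 (90%) fell, with a median of −0.65. Their summed level, as log2 of the sum over genes, was 12.5 to 12.6 on mutant arrays and 13.2 to 13.3 on wild type arrays. Of 13 sperm genes, 0 rose and 11 fell (median −1.06), with a summed level of 9.45 to 9.60 in the mutant and 11.3 to 12.2 in the wild type. Most Argonautes outside the microRNA pathway are known to act in the germ line, and germline RNA moved in the same direction as they did. Its part in their falls, and in those of xrn-1, nhl-2, alg-5, cid-1, parn-1 and the other pathway genes, was not tested.

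Markers of stage and of some other tissues moved too, beside 14.4% higher and 20.1% lower over all genes. Of 14 molting genes 12 rose and 0 fell (median 2.21), with a summed level of 14.4 to 14.5 in the mutant and 11.9 to 12.8 in the wild type. Epidermal (hypodermis and seam) markers gave 7 rises and 0 falls among 10 genes (median 0.60, summed level 12.4 to 12.6 in the mutant and 11.5 to 11.7 in the wild type). Of 13 neuronal genes 4 rose and 0 fell (median 0.19, summed level 12.996 to 13.1 in the mutant and 12.7 in the wild type). Intestinal genes, with 2 of 9 higher and 3 lower (median 0.06), moved both ways. Of 11 body wall muscle genes, 0 rose and 3 fell (median −0.10). The part of tissue makeup or of age within L4 in the rises of alg-2 and ain-1 was not tested.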

How the data were processed

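RNA of whole L4 worms was measured on 3 alg-1(gk214) mutant and 3 N2 wild type arrays. The authors deposited a log2 value for each probe set on each array. The submitters' processing notes name Affymetrix Power Tools. Its version, the background correction, the way arrays were normalized and the way probes were summarized were not given in the sources used here, and the log2 scale was read from the values. The labels' protocols state an input of about 5 µg of total RNA for labelling. Array medians were 6.01 to 6.05, and no further normalization was applied. Precision is limited by the number of arrays, and detection calls were not used.

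The 77 control probe sets were left out. Mutant minus wild type was fitted over the remaining 22548 with limma 3.58.1 in R 4.3.3 (genotype only, two-sided, Benjamini-Hochberg over all of them, threshold 0.05), a step tested on simulated data. Symbols came from the platform annotation: 20766 probe sets had 1 symbol, 887 several and 895 none, and genes were named only from the first kind. A gene was represented by its probe set with the highest mean. Differences within arrays were compared with exact permutation tests.

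The genes and lists were chosen with earlier results of these data known. Named were the 10 genes, up to 4 genes past the threshold per list (8 for cofactors and for deadenylation and decapping), and the 3 nearest profiles to alg-1, alg-2 and ain-1; cofactors that did not pass and the other probe sets of list genes were added after their values were seen. Marker lists are given by counts, medians and summed levels, with no gene named. Alternatives were quantile normalization, median centring, centring on 18 hybridization control probe sets, filters on signal, a trend with a robust prior, array weights, leaving out probe sets ending in _s_at or _x_at (which match several transcripts), a stricter threshold (0.01), a block for replicate number, leaving out each array, and averaging a gene's probe sets. Deviations from the group means correlated at 0.21, 0.13 and 0.081 between arrays of equal number. Arrays of unequal number were not compared, so these values cannot decide whether equal numbers are pairs. The labels describe independent replicates, and the numbers were not taken as pairs in the setting reported. Sequences and genome positions were not used here.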

Additional observations from a re-analysis of the deposited data

How the results depend on the processing

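Over the 17 alternatives, 2 to 3 of the 10 genes rose and 2 to 4 fell, beside 2 and 3 in the setting reported. Settings that left out probe sets, by signal or by ending, no longer measured some of the 10 genes or of the listed genes. Lower counts there partly reflect fewer genes measured. Leaving out single arrays gave 2 rises each time and 2 to 3 falls. The replicate block gave the same counts, 2 and 3, and over all genes 2521 rises and 3506 falls, beside 2466 and 3449. With the block, alg-2 probe set 179952_at had a limma adjusted p of 0.0538. Of 270 changes recomputed for single probe sets, 241 kept direction and call, 12 lost the call, 4 gained it and 13 changed sign, none of these for a probe set past the threshold as reported. The sign changes under other processing were those of alg-1 probe set 174286_at (0.037), dcr-1 (0.11) and drsh-1 probe set 188918_at (0.12) with hybridization control centring, of dcr-1 with array weights (0.0043), and of ain-2 (−0.034) and drsh-1 (0.028) as means of their probe sets. With single arrays left out, the change ranged from −0.30 to 0.088 for alg-1 probe set 174286_at, −0.070 to 0.050 for dcr-1, −0.11 to 0.070 for drsh-1 probe set 188918_at and −0.10 to 0.21 for xrn-2. The cause was not tested. Hybridization control centring moved the median change of all genes to 0.08, beside −0.06, and gave 3582 rises and 1812 falls. With it ain-2 probe set 174974_s_at passed (0.25, limma adjusted p = 0.0437). A threshold of 0.01 gave 1654 rises and 2108 falls over all genes. List counts ranged, for rises and falls in turn, over 1 to 3 and 0 to 5 for cofactors, 1 to 3 and 2 to 6 for deadenylation and decapping, 0 to 1 and 0 to 3 for Dicer partners, 0 to 2 and 0 for NHL-domain genes, 0 and 6 to 12 for other Argonautes, 0 and 10 to 19 for germline, 0 to 1 and 3 to 11 for sperm, 5 to 7 and 0 for epidermis, 8 to 13 and 0 to 1 for molting, 2 to 3 and 0 to 3 for intestine, 0 to 1 and 1 to 5 for muscle, and 3 to 7 and 0 for neurons. Dim signal limits what xrn-1 and drsh-1 probe set 179831_at can show.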
